A study of Mus musculus with 4 samples.

Results

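The genes described are 8 Toll-like receptors (Tlr1, Tlr2, Tlr3, Tlr4, Tlr5, Tlr7, Tlr9 and Tlr13) and 2 adaptors (Myd88 and Ticam1), found on the arrays through the RefSeq accession of each probe. These 10 genes had 11 of the 39429 probes that are not controls, and 20659 genes in all could be named. The RNA was that of lamina propria lymphocytes, immune cells that lie beneath the epithelium of the gut. They were taken at day 10 from C57BL6 mice given dextran sulfate sodium (DSS), which damages the lining of the colon. The 4 groups were labelled Stat4-/- with DSS and LIF, labelled Stat4-/- with DSS, wild type given both agents (wild type DSS+LIF), and wild type with DSS. LIF, leukemia inhibitory factor, is a relative of interleukin-6. All groups received DSS, and there was 1 array for the 5 mice of each group. No label gives the age of the mice or the deleted part of Stat4, or tells if RNA of the mice was pooled.

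With 1 array per group there is no replicate error between animals, so no difference below has a test, and genes are counted by size alone. The Stat4 probe had log2 levels of -0.48 and 0.31 on the arrays labelled Stat4-/- with and without LIF, and of 0.21 and -0.49 on the wild type arrays with and without LIF. It did not separate the genotypes, and no source used here tells if it lies in the deleted part. Genotypes are therefore named as labelled. Levels are log2 signals relative to the 75th percentile of each array, and a probe counts as detected when the scanner software marked at least 50% of its spots as well above background. The arrays differed in brightness, with 75th percentiles of 43.3, 45.3 and 23.8 for labelled Stat4-/- with DSS and LIF, labelled Stat4-/- with DSS, and wild type DSS+LIF, and of 122.9 for wild type with DSS. Between 37.6% and 61.7% of probes were detected per array. The array of wild type DSS+LIF stood apart: its correlation with the others over 12674 probes detected on all arrays was 0.800 to 0.818, whereas the highest correlation of the other arrays was 0.960 to 0.980 (probes are not independent replicates).

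Toll-like receptors bind microbial molecules at the cell surface or in endosomes and signal through adaptors that carry the same TIR domain. Myd88 serves nearly all of them and activates NF-kB and the inflammatory cytokine genes, while Ticam1, also called TRIF, serves Tlr3 and Tlr4 and leads to type I interferon. In the gut they are known for sensing the bacteria that cross an injured epithelium. Macrophages, neutrophils, dendritic cells, B cells and epithelial cells carry different sets of them. In bulk RNA such as this, fewer cells of a type and less RNA per cell cannot be told apart.

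Promoters of 3 of the 10 genes are shown because their levels carry the comparisons below: Myd88, Ticam1 and Tlr13. They are the 250 bases before the transcription start from RefSeq (assembly GRCm38.p6), 5′ to 3′ on the strand of the gene. Capitals mark matches on either strand to a STAT motif (TTCNNNGAA), an NF-kB motif (GGG and CC with any 5 bases between), an interferon response core (GAAA and GAAA with any 2 bases between) and a PU.1 core (GAGGAA).
Myd88 promoter, chr9:119340019-119340268, minus strand: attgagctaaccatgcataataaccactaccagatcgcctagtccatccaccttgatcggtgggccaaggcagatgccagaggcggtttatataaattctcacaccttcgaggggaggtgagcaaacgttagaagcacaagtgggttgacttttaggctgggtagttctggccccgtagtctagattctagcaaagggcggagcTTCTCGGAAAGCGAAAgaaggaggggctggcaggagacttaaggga
Ticam1 promoter, chr17:56276768-56277017, minus strand: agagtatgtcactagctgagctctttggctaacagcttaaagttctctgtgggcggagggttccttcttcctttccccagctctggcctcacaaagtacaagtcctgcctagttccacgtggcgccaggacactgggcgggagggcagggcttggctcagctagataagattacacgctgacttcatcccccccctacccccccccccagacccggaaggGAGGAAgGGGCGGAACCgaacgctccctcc
Tlr13 promoter, chrX:106143025-106143274, plus strand: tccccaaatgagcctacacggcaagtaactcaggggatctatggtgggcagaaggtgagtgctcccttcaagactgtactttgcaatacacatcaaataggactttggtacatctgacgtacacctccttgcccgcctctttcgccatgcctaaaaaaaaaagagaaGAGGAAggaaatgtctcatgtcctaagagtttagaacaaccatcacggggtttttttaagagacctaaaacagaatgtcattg
The capitals of the Myd88 promoter are 1 STAT match, starting 46 bases before the transcription start, overlapped by 1 interferon response core starting 40 bases before it. Ticam1 had 1 PU.1 core 30 bases and 1 NF-kB match 23 bases before the start, and Tlr13 had 1 PU.1 core 83 bases before it. Over all 32851 promoter windows of the same length in the RefSeq table, 7.02% held the STAT motif, 2.98% the interferon response core, 45.8% the NF-kB motif and 23.3% the PU.1 core. A match describes letters and shows no binding. The table held promoters for 8 of the 10 genes, and not for Tlr4 and Tlr7.

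Detection differed among the 10 genes. Tlr1, Tlr9 and Tlr13 were detected on all 4 arrays, Tlr7 on 3, Myd88 and Ticam1 on 2 each, and Tlr2, Tlr3 and Tlr4 on 1 each, the bright array of wild type with DSS. Tlr5, the receptor for bacterial flagellin, was detected on 0 of 4 arrays. Hence 5 genes could be compared between genotypes under DSS, 4 between LIF and no LIF in wild type, and 3 in each of the other comparisons. The dimmest detected probe lay at -2.04 and -2.13 on the arrays labelled Stat4-/- with and without LIF, at -1.49 on that of wild type DSS+LIF, and at -3.79 on that of wild type with DSS, so the same level can pass on one array and not on another.

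**Figure D1:**
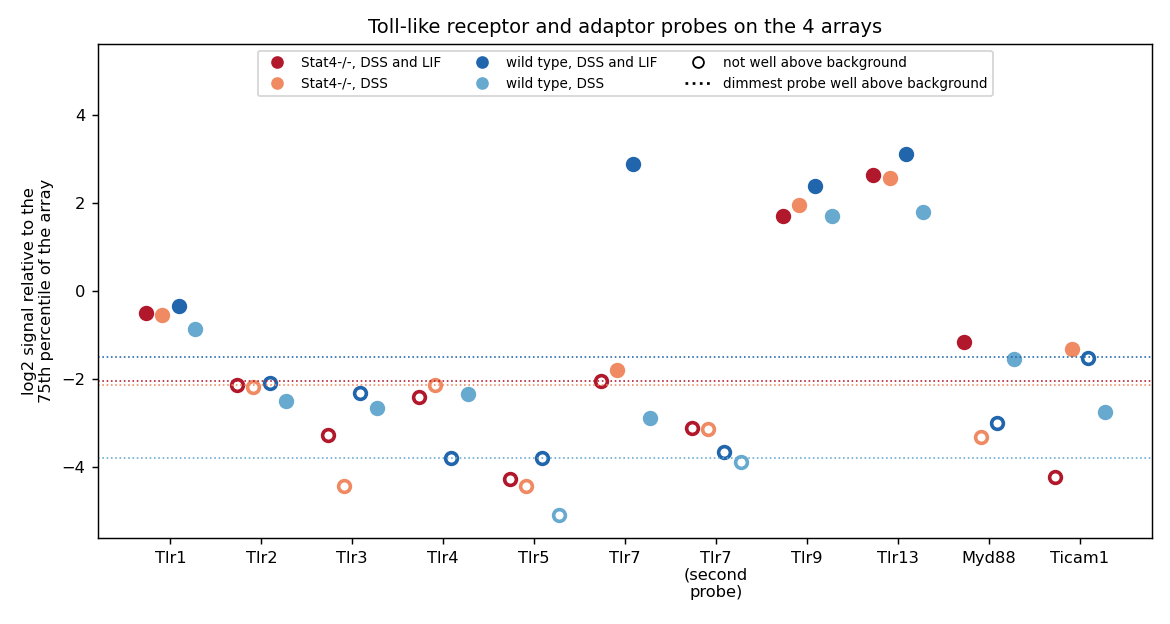
Log2 signal relative to the 75th percentile of the array (vertical axis) for the 11 probes, with 1 point per array; filled points are well above background, open points are not, and dotted lines mark the dimmest probe well above background on each array. Tlr1, Tlr9 and Tlr13 are filled on all 4 arrays, whereas the 2 Tlr7 probes differ on the array of wild type DSS+LIF (2.88 against -3.65).

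Of the endosomal receptors of nucleic acids, Tlr9 and Tlr13 were detected on every array. Tlr13, which in mice recognises bacterial ribosomal RNA, had log2 levels of 2.63 and 2.55 on the arrays labelled Stat4-/- with DSS and LIF and with DSS, of 3.10 in wild type DSS+LIF, and of 1.79 in wild type with DSS. The level was highest in wild type DSS+LIF and lowest without LIF in wild type, and the 2 labelled Stat4-/- arrays lay within 0.08 of each other. Its raw signals were 267 and 264 on the labelled Stat4-/- arrays, 203 in wild type DSS+LIF and 426 in wild type with DSS, with errors of 26.8, 26.5, 20.4 and 42.7 by the error model of the scanner software, which covers a single spot. With LIF the wild type level was 2.46-fold higher (log2 difference 1.30), in a comparison where 34.5% of 8963 genes passed 2-fold upward and the median of all genes was 0.57. Relative to that median the Tlr13 difference was 0.73. It was 0.18 with normexp background correction (offset 50), where the median of all genes was 0.07. Labelled Stat4-/- against wild type under DSS was 1.68-fold higher (log2 difference 0.75, or 0.19 with that correction). With LIF against without it in labelled Stat4-/- the difference was 0.08, or -0.47 with that correction.

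Tlr9, the receptor for unmethylated CpG DNA, varied less. Its log2 levels were 1.69 and 1.96 on the arrays labelled Stat4-/- with and without LIF, and 2.37 and 1.69 on the wild type arrays with and without LIF. The highest and lowest arrays differed by 1.60-fold, and no comparison reached 2-fold. With normexp (offset 50) the difference of labelled Stat4-/- from wild type under DSS turned from 0.27 to -0.13, and that of LIF in wild type from 0.68 to -0.21, so neither has a direction that holds under both corrections. With normexp without an offset Tlr9 (-1.07) and Tlr13 (-1.14) passed 2-fold in labelled Stat4-/- against wild type under DSS and LIF.

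Tlr7, the receptor for single-stranded RNA, was measured by 2 probes of the same transcript that did not agree. The brighter probe had raw signals of 10.5 (not well above background) and 13.1 on the arrays labelled Stat4-/- with and without LIF, and of 175 and 16.9 on the wild type arrays with and without LIF. The second probe was not well above background on any of the 4 arrays and had a raw signal of 1.89 in wild type DSS+LIF. The array of wild type DSS+LIF was therefore high by 1 probe and low by the other. By the brighter probe the log2 difference of LIF in wild type was 5.75, which is 53.7-fold. It was 2.99 with the mean of both probes, 4.51 with normexp without an offset and 2.63 with normexp (offset 50). The central 95% of all measured genes in that comparison reached up to 2.91 with the unaltered processing. That range was not taken for the other settings, so only the difference of 5.75 can be set against it. Under DSS and LIF the labelled Stat4-/- array was at least 30.4-fold lower than wild type, a bound set against the dimmest detected probe. Without the array that stood apart the remaining measured difference of Tlr7 was labelled Stat4-/- against wild type under DSS, 2.11-fold higher (log2 difference 1.07). This fell under 2-fold with quantile scaling (0.96), the mean of both probes (0.92), the authors' deposited table (0.89), normexp without an offset (0.83) and normexp with offset 50 (0.65). The raw signals behind it, 13.1 and 16.9, ran the other way, on arrays with 75th percentiles of 45.3 and 122.9.

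Tlr3, the receptor for double-stranded RNA, had log2 levels of -3.26 and -4.42 on the arrays labelled Stat4-/- with and without LIF, and of -2.32 and -2.66 on the wild type arrays with and without LIF. It was detected on the wild type DSS array only, and that level lay below the dimmest detected probe of every other array, so no fold can be given.

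Among receptors of the cell surface, Tlr1, which pairs with Tlr2 to bind bacterial lipopeptides, was detected throughout. Its log2 levels were -0.50 and -0.55 on the arrays labelled Stat4-/- with and without LIF, and -0.35 and -0.86 on the wild type arrays with and without LIF. The highest and lowest arrays differed by 1.42-fold, which was in LIF against no LIF in wild type (0.51), close to the median of all genes there. Labelled Stat4-/- against wild type was 0.30 with DSS alone. With LIF as well it was -0.15, which turned to 0.01 and 0.13 with normexp with and without the offset.

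Tlr2 was measured by 1 probe printed in 10 spots. The means over its spots were -2.14 ± 0.26 (SD, 10 spots) and -2.17 ± 0.13 (SD, 9 spots after 1 flagged spot was left out) on the arrays labelled Stat4-/- with and without LIF. They were -2.09 ± 0.31 (SD, 9 spots) and -2.50 ± 0.15 (SD, 10 spots) on the wild type arrays with and without LIF. The spots of all 4 arrays overlapped. Well above background were 2 of 10 and 3 of 9 spots on the arrays labelled Stat4-/-, 0 of 9 in wild type DSS+LIF, and 10 of 10 in wild type with DSS, whose relative level was the lowest of the 4. This order follows the brightness of the arrays, and no difference in Tlr2 was measurable. Tlr4, the receptor for lipopolysaccharide, had log2 levels of -2.41 and -2.14 on the arrays labelled Stat4-/- with and without LIF, and of -3.79 and -2.34 on the wild type arrays with and without LIF. It too was detected on the wild type DSS array only, at a level below the dimmest detected probe of every other array.

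Of the adaptors, Myd88 was measured by 1 probe in 10 spots, with a raw signal of 19.4 on the array labelled Stat4-/- with DSS and LIF and 4.56 on that labelled Stat4-/- with DSS, arrays of like brightness. In wild type it was 2.97 with DSS and LIF and 42.2 with DSS. The log2 spot values ran from -1.46 to -1.02 (median -1.12, 9 spots) in labelled Stat4-/- with DSS and LIF, and from -4.36 to -2.66 (median -3.38, 10 spots) in labelled Stat4-/- with DSS. They ran from -3.80 to -2.0 (median -3.06, 10 spots) in wild type DSS+LIF, and from -1.71 to -1.24 (median -1.56, 10 spots) in wild type with DSS. Each spot of the 2 arrays where Myd88 was detected lay above each spot of the 2 arrays where it was not. Spots of 1 array share their RNA and show the error within an array, not between mice.

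**Figure D2:**
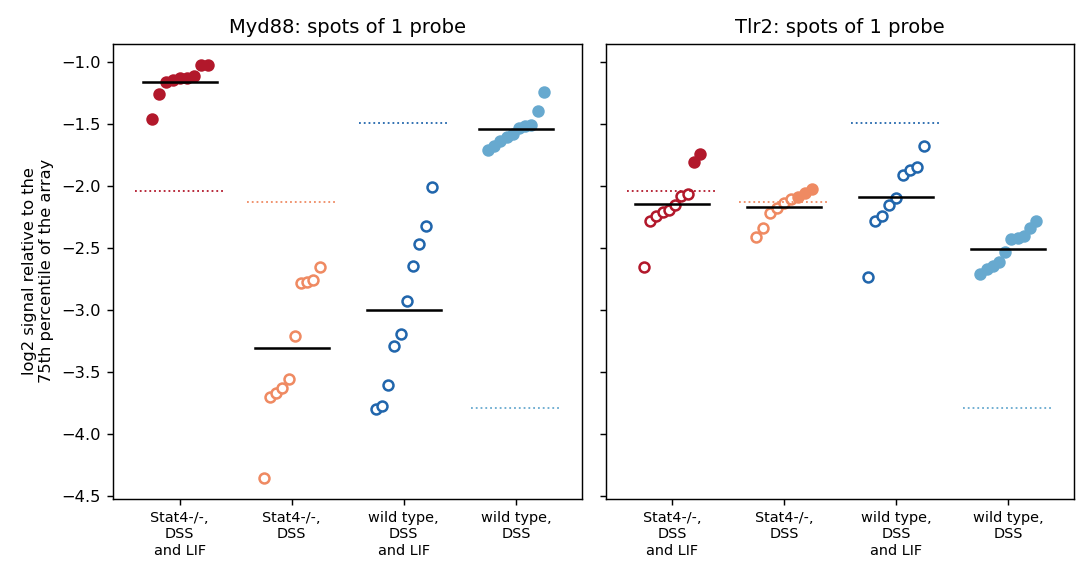
Log2 signal of each kept spot relative to the 75th percentile of its array (vertical axis) for the Myd88 and Tlr2 probes on the 4 arrays; filled spots are well above background, black bars are means, and dotted lines mark the dimmest probe well above background. Myd88 spots of labelled Stat4-/- with DSS and LIF (mean -1.16) and of wild type with DSS (mean -1.54) lie above those of the other arrays (means -3.31 and -3.00), whereas Tlr2 spots overlap.

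Set against the dimmest detected probe of the array where it was not detected, Myd88 was at least 1.96-fold higher with LIF than without LIF in labelled Stat4-/-. Labelled Stat4-/- against wild type was at least 1.50-fold lower under DSS and at least 1.26-fold higher under DSS and LIF. For LIF in wild type no bound could be given. The level with DSS alone (-1.54) lay below the dimmest detected probe of the array with DSS and LIF (-1.49). Such a mark is not a sharp limit, as the brighter probe of the leukocyte gene Laptm5, at -1.3 on that array, was not detected. Bounds set against a higher mark would be smaller. The comparisons with wild type DSS+LIF rest on the array that stood apart, and the other bounds do not use it.

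Ticam1 had raw signals of 2.31 (not well above background) and 18.2 on the arrays labelled Stat4-/- with and without LIF, and of 8.36 (not well above background) and 18.3 on the wild type arrays with and without LIF. The corresponding log2 levels were -4.23, -1.31, -1.51 and -2.75. Labelled Stat4-/- was thus 2.70-fold higher than wild type under DSS on the relative scale, while the raw signals of those 2 arrays were alike. With normexp (offset 50) that log2 difference was 0.81 in place of 1.43. With LIF, labelled Stat4-/- was at least 1.66-fold lower than without it. Ticam1 and Myd88 therefore stood in opposite order on the 2 labelled Stat4-/- arrays, with Ticam1 detected without LIF and Myd88 detected with LIF. In wild type both were detected without LIF and neither with it, and no bound could be given for either.

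Counted together under DSS, 2 of the 5 measured genes (Tlr7 and Ticam1) passed 2-fold upward and 0 downward in labelled Stat4-/-, against 13.2% higher and 6.81% lower of 10500 measured genes, or 20.0% in either direction. With LIF in wild type 2 of 4 (Tlr7 and Tlr13) were higher, against 34.5% of all measured genes, and 0 were lower, against 13.6%, or 48.1% in either direction. In labelled Stat4-/- against wild type under DSS and LIF 0 of 3 reached 2-fold in either direction, against 14.1% higher and 31.3% lower of 8348 genes (45.4% together). With LIF in labelled Stat4-/- 0 of 3 did, against 3.21% higher and 3.08% lower of 9783 genes (6.29% together). Nothing particular to these genes is read from such small counts. The comparisons share arrays, and genes not detected are left out.

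**Figure D3:**
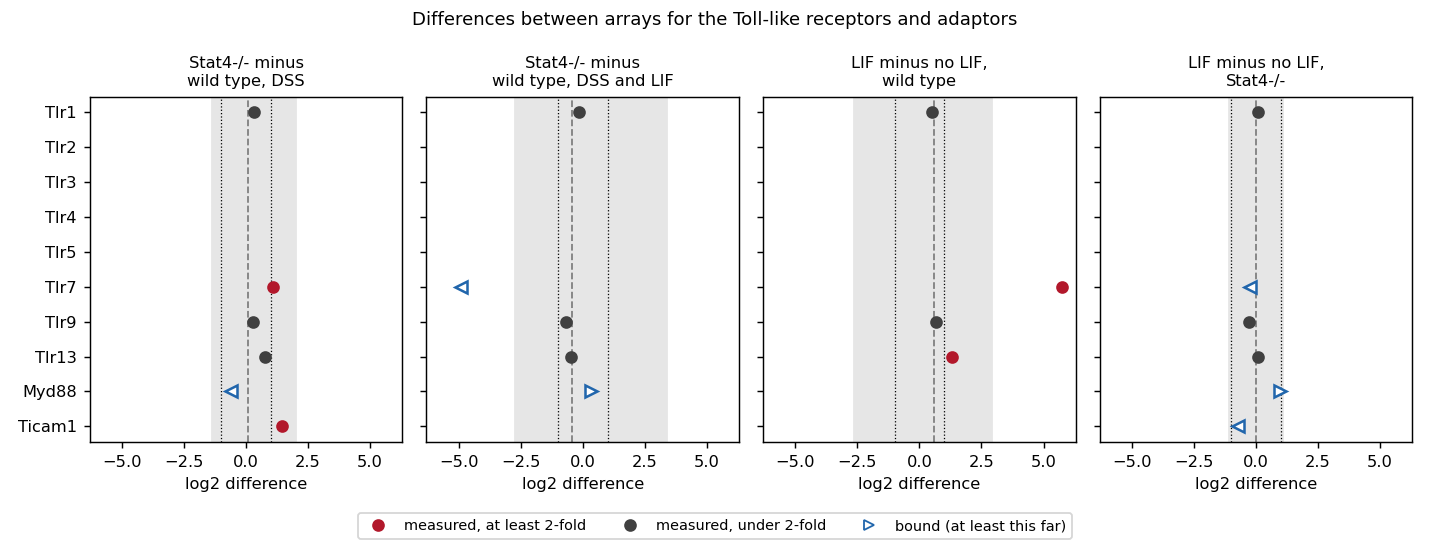
Log2 differences of the 10 genes (rows) in the 4 comparisons (panels); dots are measured differences, open triangles are bounds that point away from 0, the grey band holds the central 95% of all measured genes, the dashed line is their median and dotted lines mark 2-fold. The Tlr7 difference for LIF in wild type (5.75) lies outside the band, and rows with no symbol had no measurable difference.

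Markers of cells that carry these receptors, and of some other cells, were read on the same arrays. Of 10 macrophage and monocyte markers on the arrays, 7 and 7 were detected on those labelled Stat4-/- with and without LIF, and 5 and 8 in wild type with and without LIF. The log2 of their summed level was 4.81, 4.56, 5.28 and 4.63 in the same order, and Cd163 and C1qa were not well above background on any array. Of 9 B cell markers 7, 8, 7 and 9 were detected, with log2 sums of 3.53, 4.28, 4.23 and 3.56. Of 13 neutrophil markers 9, 9, 5 and 9 were detected, with log2 sums of 11.28, 11.66, 8.58 and 9.11. In labelled Stat4-/- against wild type under DSS, where Tlr7 and Ticam1 were higher, 5 of 8 measured neutrophil markers and 4 of 8 B cell markers were at least 2-fold higher, and 1 of 7 macrophage markers was, against 13.2% of all measured genes. With LIF in labelled Stat4-/-, where Myd88 was higher by its bound, 5 of 5 measured pancreatic acinar markers were at least 2-fold higher, against 3.21% of all measured genes. There 1 of 7 macrophage, 0 of 9 neutrophil and 0 of 7 B cell markers were higher, and 1 B cell marker was lower. With LIF in wild type, where Tlr7 and Tlr13 were higher, 4 of 5 mast cell markers were higher and 1 lower, 3 of 7 B cell markers were higher and 0 lower, and 2 of 5 macrophage markers were higher and 1 lower. Of all measured genes in that comparison 34.5% passed upward and 13.6% downward. Under DSS in labelled Stat4-/- 1 of 5 dendritic and 1 of 7 plasmacytoid dendritic markers were higher, and 0 were lower. With LIF in wild type 1 of 4 dendritic markers was higher and 0 lower. Of 6 plasmacytoid dendritic markers there 2 were higher and 2 lower. Other lists moved too: under DSS 3 of 5 stromal markers were higher and 3 of 5 natural killer cell markers lower. The part of these markers in the receptor levels was not tested. T cell markers, which the label lymphocytes calls for, were detected on every array (9 or 10 of 10), and so were all 8 epithelial markers.

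The rest of the pathway was read from lists of 93 genes in all, chosen by role. Of the other 4 Toll-like receptors, Tlr6, a partner of Tlr2, had log2 levels of 1.01 and 1.33 on the arrays labelled Stat4-/- with and without LIF and of -0.04 and 0.13 in wild type with and without LIF. Both labelled Stat4-/- arrays lay above both wild type arrays, but the share of all genes that split in this way was not counted. No genotype pattern is therefore read from Tlr6. Tlr12 was detected on all 4 arrays at -0.58, -0.53, -0.31 and -0.80 in the same order, while Tlr8 and Tlr11 were detected on 0 of 4. Among accessory proteins, the lipopolysaccharide co-receptor gene Ly96 had levels of 4.24, 4.88, 5.33 and 4.33, and Unc93b1, which carries endosomal receptors to their place, had levels of 0.56, 0.29, -0.43 and 0.34. Cd14, the co-receptor that loads lipopolysaccharide, had levels of -0.66, -0.04, -1.0 and -0.64. None of these 3 differed by 2-fold between genotypes under DSS. Of 9 accessory genes 7 were measured there, of which 2 passed 2-fold upward and 0 downward. Their median was 0.55, against 0.08 over all genes, of which 13.2% passed upward and 6.81% downward.

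Over the lists of other receptors, accessory proteins, signalling, transcription factors, inhibitors, targets, other sensors and interleukin-1 family receptors, 62 genes were measured in labelled Stat4-/- against wild type under DSS, of which 11 passed 2-fold upward and 5 downward. Their median was 0.10, against 0.08 over all genes, of which 13.2% passed upward and 6.81% downward. The inhibitor gene Tnip1 was 12.9-fold higher by its brighter probe, but its second detected probe gave a log2 difference of -0.03. The kinase gene Irak2, which acts below Myd88, was 5.77-fold higher, and its second probe gave 2.10 on the log2 scale against 2.53. The deubiquitinase gene Cyld and the chemokine gene Ccl2 were each 2.15-fold lower. Of 13 measured signalling genes 2 were higher and 0 lower, and of 13 measured target genes 3 were higher and 2 lower.

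With LIF in labelled Stat4-/- 61 of these genes were measured and 56 lay within 2-fold, with 3 higher, 2 lower and a median of -0.13, against 3.21% higher and 3.08% lower of all genes. The kinase gene Tbk1, which acts below Ticam1, was 2.12-fold higher and Cyld 2.42-fold higher, whereas Irak2 was 3.06-fold lower and Tnip1 2.68-fold lower, both by their brighter probes (second probes -0.34 and -0.11 on the log2 scale). With LIF in wild type 54 were measured, 15 passed 2-fold upward and 8 downward. Their median was 0.49, against 0.57 over all genes, of which 34.5% passed upward and 13.6% downward. The inhibitor gene Tollip was 12.0-fold higher by 1 of 3 probes and the chemokine gene Cxcl10 7.65-fold higher. Ccl4 was 46.9-fold and Cxcl2 5.53-fold lower, both genes of chemokines induced by Toll-like receptors, and the kinase gene Ikbkb, which releases NF-kB, was 4.07-fold lower. In labelled Stat4-/- against wild type under DSS and LIF 51 were measured, 9 passed 2-fold upward and 15 downward. Their median was -0.41, against -0.45 over all genes, of which 14.1% passed upward and 31.3% downward. There Ccl4 was 111-fold, Cxcl2 11.7-fold and Tnip1 10.8-fold higher, whereas Tollip was 12.7-fold, the RNA sensor gene Ifih1 7.99-fold and the kinase adaptor gene Tab3 5.75-fold lower, the first 2 of these by 1 probe whose companions were not detected on both arrays. The second detected Tnip1 probe gave -1.66 on the log2 scale there. These last 2 comparisons use the array that stood apart.

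**Figure D4:**
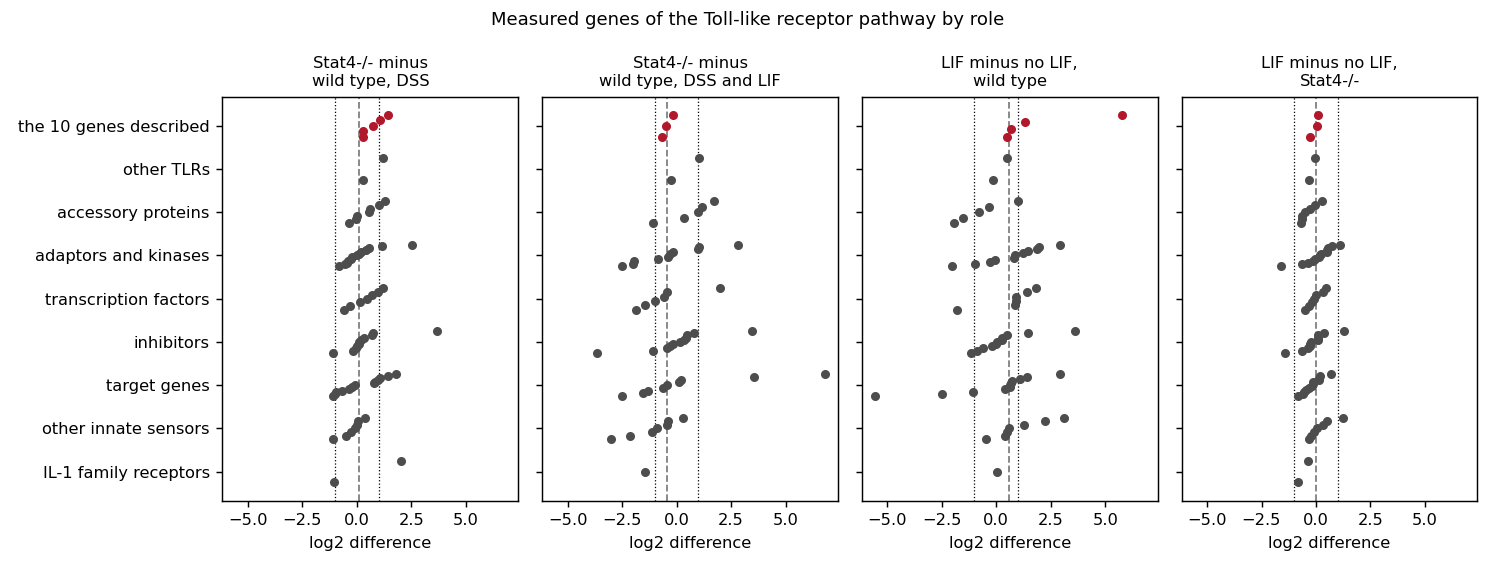
Log2 differences of measured genes by role (rows) in the 4 comparisons (panels), with 1 dot per gene; dotted lines mark 2-fold and the dashed line is the median of all measured genes. Dots spread most in the 2 panels that use the array of wild type DSS+LIF, and least for LIF in labelled Stat4-/-, where 56 of 61 pathway genes lay within 2-fold.

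Profiles most like those of the genes detected on all 4 arrays were sought among 8044 other such genes, by the root mean square distance of levels centred on their own mean. Tmem11 was nearest to Tlr1 (0.011), Dennd4a to Tlr9 (0.019) and Rxrb to Tlr13 (0.019). These distances rest on 4 arrays and have no test.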

How the data were processed

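Probes were named by RefSeq accession, without versions, by way of RefSeq's gene list for GRCm38.p6, which gave names only (27234 of 39429 probes, 69.1%). Intensity per spot was extracted by the authors using Feature Extraction from Agilent, whose version is 11.0.1.1 in the file headers but 9.1 in the submitters' processing notes. Its background-subtracted signal was used, per the file headers, and the grid names mouse build mm9, whose coordinates were not used. The authors also deposited a table of log2 values of the same arrays, used as an alternative. How it was normalized, floored or centred is unknown. Its medians were 3.31 for labelled Stat4-/- with DSS and LIF and with DSS, 2.54 for wild type DSS+LIF and 3.31 for wild type with DSS. The median of wild type DSS+LIF was the lowest value of that array, held by 51.2% of its entries. On the other arrays 27.0% to 41.7% of entries lay at the lowest value. The deposited values correlated with the scanner values at 0.971 to 0.992, so their scale and direction are those of log2 signal.

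Flagged spots were left out, log2 signals were averaged per probe and the 75th percentile of each array was subtracted. The brightest of several probes stood for a gene. A difference was measured where both arrays had that probe well above background, and a gene detected on 1 array alone received a bound against the higher of its own dim value and the dimmest detected probe. A log2 difference of 1 counted as 2-fold. The median SD of a log2 difference over spots was 0.099 to 0.107, taken from 141 to 181 detected probes printed in several spots. The number of arrays limits the precision. The arrays of labelled Stat4-/- with DSS and of wild type with DSS came from 1 scan and the others from separate scans, so scan and group cannot be told apart in the comparisons with LIF. Alternatives were normexp (limma 3.58.1) on median signals, as the files hold no mean signal, 2 other scalings, 2 other background filters, the mean over probes, outlier flags ignored and the deposited table. The genes, lists and rules were chosen with earlier results of these data known. Pathway genes were named when they were among the 3 highest or 3 lowest measured genes past 2-fold in a comparison, with quantile scaling too; receptors and accessory genes could be given levels regardless. Il1rl1 was chosen after its values were seen. Scripts were tested on simulated data. Probe sequences were not used here.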

Additional observations from a re-analysis of the deposited data

Results flagged for a closer look

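The difference of Myd88 between labelled Stat4-/- and wild type went opposite ways with and without LIF. Labelled Stat4-/- was at least 1.50-fold lower with DSS alone and at least 1.26-fold higher with LIF as well. The signals as read gave log2 differences of -1.77 and 1.84, a gap of 3.62, but 1 array of each pair was not well above background, so neither the differences nor the gap have an exact size. The brighter Tlr7 probe also went opposite ways. It was 2.11-fold higher in labelled Stat4-/- with DSS alone (1.07) and at least 30.4-fold lower with LIF as well. The difference with DSS alone fell under 2-fold with other processing, down to 0.65 with normexp (offset 50). Its raw signals, 13.1 in labelled Stat4-/- and 16.9 in wild type, ran the other way. With LIF in wild type the brighter probe was 53.7-fold higher (5.75). In labelled Stat4-/- its bound with LIF was 1.19-fold lower. The raw signals behind that bound were 10.5 with LIF and 13.1 without it, with errors of 2.53 and 2.52. No direction is read from it. That probe was not well above background on the array labelled Stat4-/- with DSS and LIF, so the values read there (-4.93 between genotypes and -0.26 for LIF) and the gap of -6.01 they give in both cases have no exact size. The second Tlr7 probe was not well above background on any array. The gaps of Myd88 and of Tlr7 all use the array of wild type DSS+LIF, which stood apart. With 1 array per group these gaps were not tested.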

How the results depend on the processing

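No paired analysis was possible because each group has 1 array. In labelled Stat4-/- against wild type under DSS 2 genes passed 2-fold. That count was 0 with normexp (offset 50) and with only genes detected on all 4 arrays, 1 with normexp without an offset (0), with quantile scaling, with the mean over probes and with the authors' deposited table, and 4 with no background filter. Under DSS and LIF the count of 0 became 2 with normexp without an offset and 4 with no filter. For LIF in wild type the count of 2 became 1 with both normexp settings and with only genes detected on all 4 arrays, and 6 with no filter. For LIF in labelled Stat4-/- the count of 0 became 3 with no filter. The other alternatives left each count as it was, and the cause of these moves was not tested. Of 132 single-gene differences under alternatives 49 moved by more than the median SD of a log2 difference over spots. That SD came from other probes, printed in several spots, since each probe of the measured genes had 1 spot. It is not the error of these genes. The 2 other background filters could not move a single-gene difference, and the mean over probes could move only Tlr7. Ignoring outlier flags could not move one either, as no spot of these genes was flagged. Fewer than the 132 differences could thus have moved at all. Of the differences past 2-fold 0 changed sign, but smaller ones did. With normexp (offset 50) Tlr9 in labelled Stat4-/- against wild type under DSS went from 0.27 to -0.13. Tlr13 for LIF in labelled Stat4-/- went from 0.08 to -0.47. In LIF against no LIF in wild type 34.5% of measured genes passed 2-fold upward and 13.6% downward. Normexp (offset 50) made these 8.88% and 17.0%. For labelled Stat4-/- against wild type under DSS that correction gave 3.13% and 7.64%, and no filter gave 28.5% and 9.73%. Under DSS and LIF the shares of 14.1% and 31.3% became 5.21% and 14.4% with the offset and 5.43% and 34.1% without it. For LIF in labelled Stat4-/- 3.21% and 3.08% became 0.0511% and 8.87% with the offset, 4.43% and 24.2% without it, and 12.0% and 5.64% with no filter. Signal over background limits Tlr2, Tlr3, Tlr4 and Tlr5 on most arrays.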

Other observations

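Other innate sensors and the receptors that share Myd88 were read beside the Toll-like receptors. Nod2, a cytosolic sensor of bacterial wall fragments, had log2 levels of -0.20 and -1.43 on the arrays labelled Stat4-/- with and without LIF, and of 0.93 and -0.32 in wild type with and without LIF. It was 2.35-fold higher with LIF in labelled Stat4-/-, and 2.14-fold lower in labelled Stat4-/- than in wild type under DSS. Both arrays with LIF lay above the array without it of the same genotype, in wild type by the array that stood apart. With LIF in wild type 34.5% of all measured genes passed 2-fold upward, and their median was 0.57. With LIF in labelled Stat4-/- 3.21% passed upward. The share of all genes higher with LIF in both genotypes was not counted. The RNA sensor gene Ifih1 was 8.70-fold higher with LIF in wild type, by 1 of its 2 probes, on the array that stood apart. The interleukin-18 receptor gene Il18r1 was 4.02-fold higher in labelled Stat4-/- than in wild type under DSS by its brighter probe. Il1rl1, the interleukin-33 receptor gene, was read by the brightest of its 3 probes. Its levels were 1.18 and 1.57 on the arrays labelled Stat4-/- with and without LIF, and 2.61 and 2.60 in wild type with and without LIF. Both labelled Stat4-/- arrays thus lay below both wild type arrays. This gene was chosen after its values were seen, and the share of all genes that split in this way was not counted. No genotype pattern is therefore read from Il1rl1.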
